A study of Mus musculus with 10 samples.

Results

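H19, Cdkn1c, Phlda2, Slc22a18 and Kcnq1ot1 are 5 imprinted genes of distal mouse chromosome 7, and their transcripts were followed over 10 tissue sections of a mouse hepatoblastoma-like model. They were found by exact gene symbol among the 31053 genes of the deposited feature lists, where each symbol occurred once. The genes had been chosen by their readout, since earlier results of the same data showed that their levels differed between tissues and that H19 formed zones in the tissue NEJ634. Their levels, zones and couplings are therefore descriptions and carry no test. The working name of the group, maternally expressed genes, holds as textbook background for H19, Cdkn1c, Phlda2 and Slc22a18. Kcnq1ot1 is known as the paternally expressed antisense RNA of the same domain. The counts do not separate parental alleles, so no value below says which allele was transcribed.

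The study combined Alb-Cre, in which the mouse albumin enhancer and promoter drive Cre, with CAG-MYC, in which Cre removes a stop cassette in front of human MYC. In the resulting ABC-Myc mice (Alb-Cre;CAG-Myc) MYC is thus turned on in cells that use the albumin promoter. NEJ634, NEJ687, NEJ723 and NEJ146 are the 4 sectioned tumours by the text of the study, which also counts 3 sectioned healthy livers. By elimination NEJ638, NEJ654 and NEJ677 are these livers. The study names littermates lacking Alb-Cre, CAG-MYC or both as normal controls. The labels call every section hepatoblastoma and give neither the genotype nor the age of a single tissue. Each of the 7 tissues was therefore kept as a group of its own under its number: NEJ146 with 4 adjacent sections (sections 1 to 4), and NEJ634, NEJ687, NEJ723, NEJ638, NEJ654 and NEJ677 with 1 section each. Levels are given as CPM, the UMIs of a gene per 1000000 UMIs of the tissue spots, where a unique molecular identifier (UMI) stands for a captured RNA molecule. Afp, the fetal serum protein used as a marker of hepatoblastoma, stood at 4248 CPM in NEJ634, 4083 in NEJ687, 3280 in NEJ723 and 2023, as the mean of 4 sections, in NEJ146. It stood at 9.63 CPM in NEJ638, 3.79 in NEJ654 and 4.96 in NEJ677. In these 3 tissues the hepatoblastoma label thus went against this marker and against the study's count of healthy livers. No tissue has a second animal behind it, and adjacent sections share their animal, so no value covers the spread between animals.

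Imprinted genes are transcribed mainly from the chromosome copy inherited from 1 parent. On distal mouse chromosome 7 they fall into neighbouring domains, each with its own imprinting control region. In the H19/Igf2 domain, the maternal copy transcribes H19, a non-coding RNA, and the paternal copy transcribes Igf2, a fetal growth factor. In the Kcnq1ot1 domain, the long non-coding RNA Kcnq1ot1 is transcribed from the paternal copy and is known to silence Cdkn1c, Phlda2 and Slc22a18 on that copy. H19 and Igf2 are abundant in fetal liver and are silenced in liver after birth. Cdkn1c (p57) is an inhibitor of cyclin-dependent kinases, Phlda2 is a pleckstrin homology domain protein known for limiting placental growth, and Slc22a18 is a membrane transporter.

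In GENCODE release M21 on GRCm38, H19 lies at chr7:142575529-142578143 on the minus strand and Igf2 at chr7:142650766-142666816 on the minus strand, 72.6 kb from it. Kcnq1ot1 at chr7:143203458-143296549 runs on the minus strand inside the plus-strand gene Kcnq1 (chr7:143106362-143427042). It is followed by Cdkn1c at chr7:143458339-143461050 (minus), Slc22a18 at chr7:143473736-143499334 (plus) and Phlda2 at chr7:143501545-143503150 (minus). From H19 to Phlda2 the 5 genes span 928 kb, and the 4 genes of the Kcnq1ot1 domain span 300 kb. The counting of strand is not given in the sources used here, so reads of Kcnq1ot1 and of Kcnq1 introns may be hard to tell apart.

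H19 RNA is also the host of the microRNA miR-675. Its mature forms are shown to identify the part of H19 from which they are cut, since the poly(A)-captured counts below measure the H19 RNA and not the microRNAs. The sequences are those of RefSeq on GRCm38.p6, both lie inside H19 on the minus strand, at chr7:142577112-142577133 (5p) and chr7:142577078-142577099 (3p), and capitals mark the seed, bases 2 to 8. The 2 forms have different seeds.
mmu-miR-675-5p: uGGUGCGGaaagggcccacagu
mmu-miR-675-3p: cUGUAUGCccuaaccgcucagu

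The RefSeq promoter table held 3 of the 5 genes, Phlda2, Slc22a18 and Kcnq1ot1. The 250 bases before the start of Kcnq1ot1 are printed because Kcnq1ot1 is the member that ran against the others in NEJ634 (below). This window lies in an intron of Kcnq1, at chr7:143296548-143296797 of GRCm38.p6 on the minus strand. Capitals mark matches to the letters CCAAT (the CCAAT box), searched on both strands.
Kcnq1ot1 upstream: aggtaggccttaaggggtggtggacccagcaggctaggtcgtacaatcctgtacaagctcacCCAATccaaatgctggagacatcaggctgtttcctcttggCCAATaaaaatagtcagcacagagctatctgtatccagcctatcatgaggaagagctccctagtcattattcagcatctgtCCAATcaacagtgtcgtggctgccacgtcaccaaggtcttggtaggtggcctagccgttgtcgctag
It holds 3 CCAAT matches, against 1 before the RefSeq start of Phlda2 and 0 before that of Slc22a18. RefSeq and GENCODE starts differ, and the Phlda2 window, chr7:143502525-143502774, lies inside the GENCODE gene given above. The windows of Slc22a18 (chr7:143473539-143473788) and Kcnq1ot1 overlap the GENCODE starts of these genes. Of the 32851 windows of this length in the table, 33.8% hold at least 1, and the share with 3 or more was not counted. The same windows hold 5 CG pairs before Kcnq1ot1, 21 before Phlda2 and 0 before Slc22a18, with a median of 6 over all windows. Of the other letters searched on both strands, GGGCGG (the GC box) occurred 2 times and TATAAA (the TATA box) 1 time before Phlda2 and neither occurred before the other 2 genes, while CACGTG (an E-box) occurred in none. At least 1 match of each is held by 32.7%, 12.4% and 6.02% of all windows, in this order.

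Visium slides capture polyadenylated RNA of a 10 µm frozen section on barcoded spots and count UMIs. A spot can hold several cells, so a value describes spots or a section and not a cell type, and fewer cells of a type cannot be told apart from less RNA per cell. The sections had 1890 to 4878 tissue spots with 39280329 to 117077925 tissue UMIs, and the median per tissue spot ranged from 12133.5 to 28926.5 UMIs. The sections shared 4989 barcodes, since slides carry the same barcodes by design. Tissue spots were those flagged in the position files; for NEJ146, where no position file was used, they were spots with 8000 or more UMIs. The flags matched the UMIs unevenly. The median of unflagged spots was lowest in NEJ687 (6659.5 UMIs) and highest in NEJ638 (11895), and 0 (NEJ634) to 361 (NEJ687) flagged spots of a section had under 500 UMIs. In NEJ687, flags mirrored from top to bottom would leave a median of 1304 UMIs in unflagged spots, so its flags may not lie over its tissue. The same doubt holds for NEJ677, where 172 flagged spots had under 500 UMIs against 90 to 100 with the flags mirrored or turned, and for NEJ723, with 182 against 70 to 104. In NEJ638 the flags hardly separated spots by UMIs, with medians of 12535 and 11895 and 50 such spots against 36 to 48. NEJ654 had 3 against 0 to 3. Unflagged spots are therefore not taken to lie off the tissue, and levels are also given over every spot with 500 or more UMIs where that moves them by over 1.5 times. The NEJ146 sections carried 6.78% to 7.22% mitochondrial UMIs against 2.46% to 3.86% in the others, and this difference and the tissue NEJ146 cannot be told apart.

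H19 split the tissues into a group of 3 tumours with high levels and a group of 4 with low levels, as the plot of levels by section shows. The low group held the tumour NEJ723 and the 3 tissues left as healthy livers. It was highest in NEJ687 at 9068 CPM (exact Poisson 95% interval 9044 to 9093). The NEJ146 sections followed at 6534, 5545, 5763 and 6407 CPM (mean 6062 ± 483, SD, n = 4 adjacent sections), and NEJ634 at 2872 (2858 to 2886). All other tissues were far lower, with 80.2 CPM in NEJ638 (77.8 to 82.7), 11.96 in NEJ723 (10.96 to 13.03), 6.31 in NEJ654 (5.57 to 7.11) and 4.86 in NEJ677 (4.20 to 5.60). Neighbouring tissues in this order were called apart where log2(CPM + 1) differed by more than 2 times the SD over the NEJ146 sections and the counting intervals did not overlap. Each step down to NEJ654 was apart by this rule, and NEJ654 and NEJ677 were not. The intervals cover counting error only.

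NEJ723 thus held 11.96 CPM of H19 beside 404 CPM of Igf2. Its unflagged spots held 35.4 CPM of H19, more than its flagged spots, as did those of NEJ654 (11.4 against 6.31) and NEJ677 (71.0 against 4.86). In NEJ638 (83.6 against 80.2) and NEJ634 (2921 against 2872) the values lay close together. The H19 levels of NEJ723, NEJ654 and NEJ677 therefore do not exceed those outside the flags, and with the doubt about the flags of NEJ723 and NEJ677 they are given as values of the flagged spots and no more. Over every spot with 500 or more UMIs, H19 stood at 20.6 CPM in NEJ723 and 30.9 in NEJ677, and NEJ634, NEJ687 and NEJ638 stood at 2891, 8876 and 81.2. In NEJ723 itself H19 was at 84.0 CPM (53.2 to 126) in tissue spots with under 5000 UMIs, which rests on 23 UMIs, 14.7 (9.12 to 22.5) in spots with 5000 to under 10000, and 11.4 (10.4 to 12.5) in spots with 10000 or more.

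**Figure D1:**
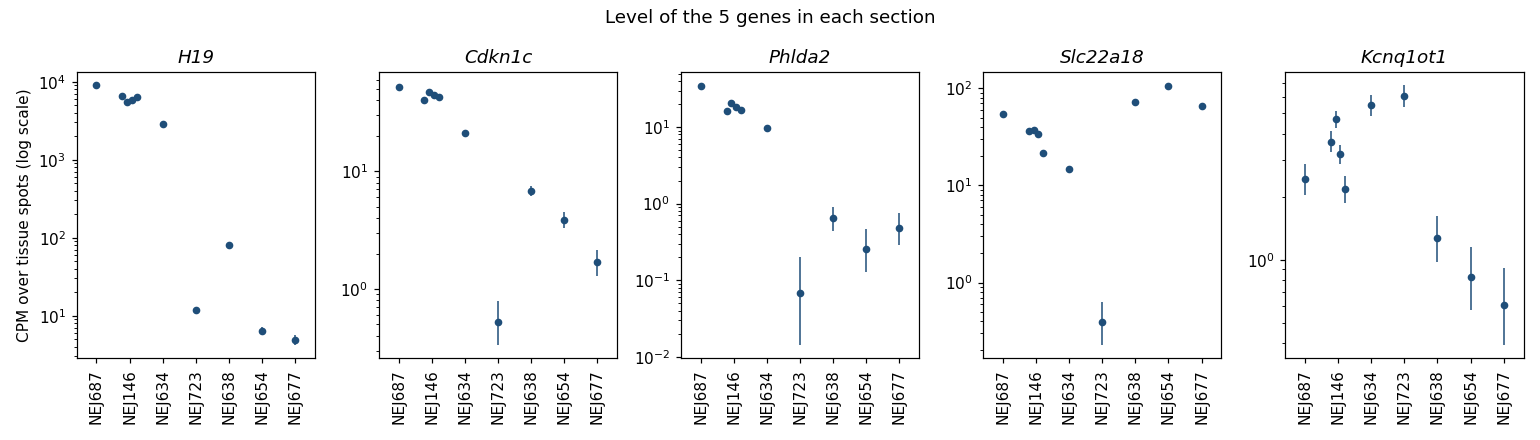
Level of each gene in each of the 10 sections, as CPM over tissue spots on a log scale with exact Poisson 95% intervals, the 4 points of NEJ146 being its adjacent sections. H19, Cdkn1c and Phlda2 are highest in NEJ687, followed by NEJ146 and NEJ634. NEJ723 holds the lowest level of Cdkn1c, Slc22a18 and Phlda2, the last on 3 UMIs and not apart from NEJ654. Kcnq1ot1 is highest in NEJ723, where it is not apart from NEJ634.

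The targets of Kcnq1ot1 silencing showed the order of H19 among the 4 tumours, which is NEJ687, NEJ146, NEJ634 and NEJ723. Cdkn1c, the kinase inhibitor, was at 52.2 CPM in NEJ687 (50.4 to 54.1), at 40.3, 47.0, 44.4 and 43.1 in NEJ146 (mean 43.7 ± 2.78, SD, n = 4), at 21.2 in NEJ634 (20.04 to 22.46) and at 0.527 in NEJ723 (0.334 to 0.791, 23 UMIs). NEJ638, NEJ654 and NEJ677 lay between NEJ634 and NEJ723 with 6.80, 3.88 and 1.68 CPM. All neighbours in the order NEJ687, NEJ146, NEJ634, NEJ638, NEJ654, NEJ677, NEJ723 were apart. Phlda2, the placental growth regulator, was at 34.0 CPM in NEJ687 (32.5 to 35.5), at 16.4, 20.7, 18.3 and 16.7 in NEJ146 (mean 18.0 ± 1.94, SD, n = 4) and at 9.82 in NEJ634 (9.02 to 10.7). In NEJ723 it rested on 3 UMIs, 0.0687 CPM (0.0142 to 0.201), and over every spot with 500 or more UMIs it stood at 0.172. With each spot weighted the same, NEJ677 moved from 0.484 to 0.815. NEJ638, NEJ677, NEJ654 and NEJ723, all under 1 CPM, were not apart from their neighbours, while the 3 steps above them were.

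Slc22a18, the transporter, had another order over all tissues. It was highest in the healthy livers by elimination, NEJ654 at 105 CPM, NEJ638 at 72.4 and NEJ677 at 65.7. They hold the highest summed levels of the hepatocyte list, 112581 to 147200 CPM against 28824 to 39547 in the other sections. NEJ687 had 54.6 CPM, the NEJ146 sections 36.3, 37.6, 33.9 and 21.8 (mean 32.4 ± 7.24, SD, n = 4), NEJ634 14.8 (13.8 to 15.9) and NEJ723 0.390 (0.227 to 0.624, 17 UMIs). NEJ687 and NEJ146, NEJ146 and NEJ634, and NEJ634 and NEJ723 were apart, and neighbours among the first 4 tissues of this order were not. The calls among the first 4 tissues rest on section 4 of NEJ146, which lies below the other sections. The limit was 0.71 on the log2 scale with it and 0.15 without it. At 0.15, NEJ654 and NEJ638 as well as NEJ677 and NEJ687 were apart too, and the pairs already called apart stayed so. Without section 1 (limit 0.81) or section 3 (0.85), NEJ687 and NEJ146 were not apart. Between NEJ634 and NEJ723 the ratio was 38.1.

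Kcnq1ot1, the silencing RNA, had another order among the 4 tumours and, like H19, Cdkn1c and Phlda2, low levels in NEJ638, NEJ654 and NEJ677. It was highest in NEJ723 at 6.05 CPM (5.34 to 6.82) and NEJ634 at 5.47 (4.87 to 6.11), followed by NEJ146 with 3.66, 4.69, 3.18 and 2.17 in its sections (mean 3.42 ± 1.04, SD, n = 4), NEJ687 at 2.42, NEJ638 at 1.27, NEJ654 at 0.824 (1.63 with each spot weighted the same) and NEJ677 at 0.611. No neighbouring tissues were apart, the limit of 0.70 on the log2 scale being set by the spread over the NEJ146 sections. Without section 4 it was 0.45, and NEJ146 and NEJ687 as well as NEJ687 and NEJ638 were apart. Without section 2 it was 0.57, and NEJ634 and NEJ146 as well as NEJ687 and NEJ638 were apart. Its level moved with the UMIs of a spot: in NEJ146 sections 1 to 4, tissue spots with fewer than 10000 UMIs held 6.49, 10.3, 8.76 and 6.49 CPM and spots with 10000 or more held 3.57, 4.45, 3.14 and 2.02. In all 10 sections it was higher in the spots left out than in the tissue spots, with 28.1 CPM in NEJ723, 20.2 in NEJ687 and 11.1 in NEJ634, so its order is that of the chosen spots. Further, over every spot with 500 or more UMIs the level was 14.3 in NEJ723 and 1.54 in NEJ677. The part of spot depth in the order of Kcnq1ot1 between tissues was not tested. Igf2, the paternally expressed neighbour of H19, was at 435 CPM in NEJ687, 404 in NEJ723, 267 in NEJ634 and 97.9, 98.7, 69.7 and 61.2 in NEJ146, and at 0.117 to 0.255 CPM in NEJ638, NEJ654 and NEJ677, on 6 to 10 UMIs each (0.199 in NEJ638 and 0.770 in NEJ677 over every spot with 500 or more UMIs).

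Over the 7 tissues, 3 of the 5 genes had a mean of at least 10 CPM (H19, Cdkn1c and Slc22a18), and each of the 3 ranged over at least 4-fold. Of the 8021 genes tested in this way, 22.8% did, with a median range of 1.22 on the log2(CPM + 1) scale. A level at least 4-fold lower in NEJ723 than in each of NEJ146, NEJ634 and NEJ687 was rarer: 58 of 8265 genes, or 0.702%, had one. H19, Cdkn1c, Slc22a18 and Phlda2 were among these 58, and ranked 1, 13, 18 and 24 by the size of the gap. The ranks describe the contrast that chose the genes and support nothing. Of the macrophage list, 3 of 7 tested genes were among the 58. They were Clec4f, the Kupffer cell lectin, with 0.275 CPM in NEJ723 against at least 75.2 in the other 3, Vsig4, a receptor of resident macrophages, with 0.665 against at least 49.2, and Marco, a scavenger receptor, with 7.65 against at least 87.8. C1qa, C1qb, Cd68 and Adgre1 were not, with C1qa at 124 against at least 156. Of the hepatocyte list 1 of 8 was among them, Cyp2e1, at 1.21 against at least 45.6 CPM. Of the endothelial list 1 of 6 was, the sinusoidal gene Clec4g, and the 11 other lists had 0 genes among the 58. All 7 genes of the macrophage list were detected in NEJ723, with a summed level of 399 CPM against 787 in NEJ634, 1346 in NEJ687 and 596 to 806 in NEJ146. Their part in the low levels of NEJ723 was not tested.

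In space, NEJ634 was divided. Spatial spread is given here as the SD of a gene's rate between places as a share of its mean, estimated from the products of deviations in adjacent spots so that counting noise cancels, and it was read as measured where its square was more than 3 times its counting error. In NEJ634 it was 0.815 for H19, 0.907 for Cdkn1c, 0.613 for Phlda2, 0.678 for Slc22a18, 0.700 for Kcnq1ot1 and 0.270 for Igf2. Of the 6533 genes with 1000 or more UMIs in that section, 3.72% had a spread of 0.5 or more, and both members with that many UMIs, H19 and Cdkn1c, were among them. Leaving out mitochondrial genes, Cdkn1c ranked 55 and H19 68 of 6523, behind Saa1, an acute phase protein, at 3.95, the neutrophil granule genes Ngp, Camp and Ltf at 2.41, 2.36 and 2.16, and Hba-a1, an adult globin, at 2.15. The pattern was coarse: the shared deviation of H19, Phlda2 and Slc22a18 between spots stayed above 0.5 of its value at adjacent spots for all 12 steps tested, whereas that of Cdkn1c and of Igf2 fell below that share at step 12 and that of Kcnq1ot1 at step 3.

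To map this, the H19 UMIs of each tissue spot were pooled with those of its up to 6 adjacent spots, and a spot was put in an H19-high zone at 1.5 times the section's rate or more and in an H19-low zone at 0.5 times or less. The high zone of NEJ634 held 644 of 1890 tissue spots (34.1%), 631 of them in a single connected patch, and the low zone held 957 spots (50.6%), 950 of them in a single patch. The share of the high zone fell to 7.72% with stricter limits and to 17.9% over every spot with 500 or more UMIs, where the low zone held 42.1% and 40.9%. The other 289 spots lay between these limits. On the map of the section the high zone fills the upper part and the left margin, and the low zone fills the lower and right parts around a gap in the flagged spots. Median UMIs per spot were 34235.5 in the high and 25751 in the low zone, the mitochondrial share was 4.10% and 3.75%, and 15.1% and 6.17% of the spots lacked at least 1 adjacent tissue spot.

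**Figure D2:**
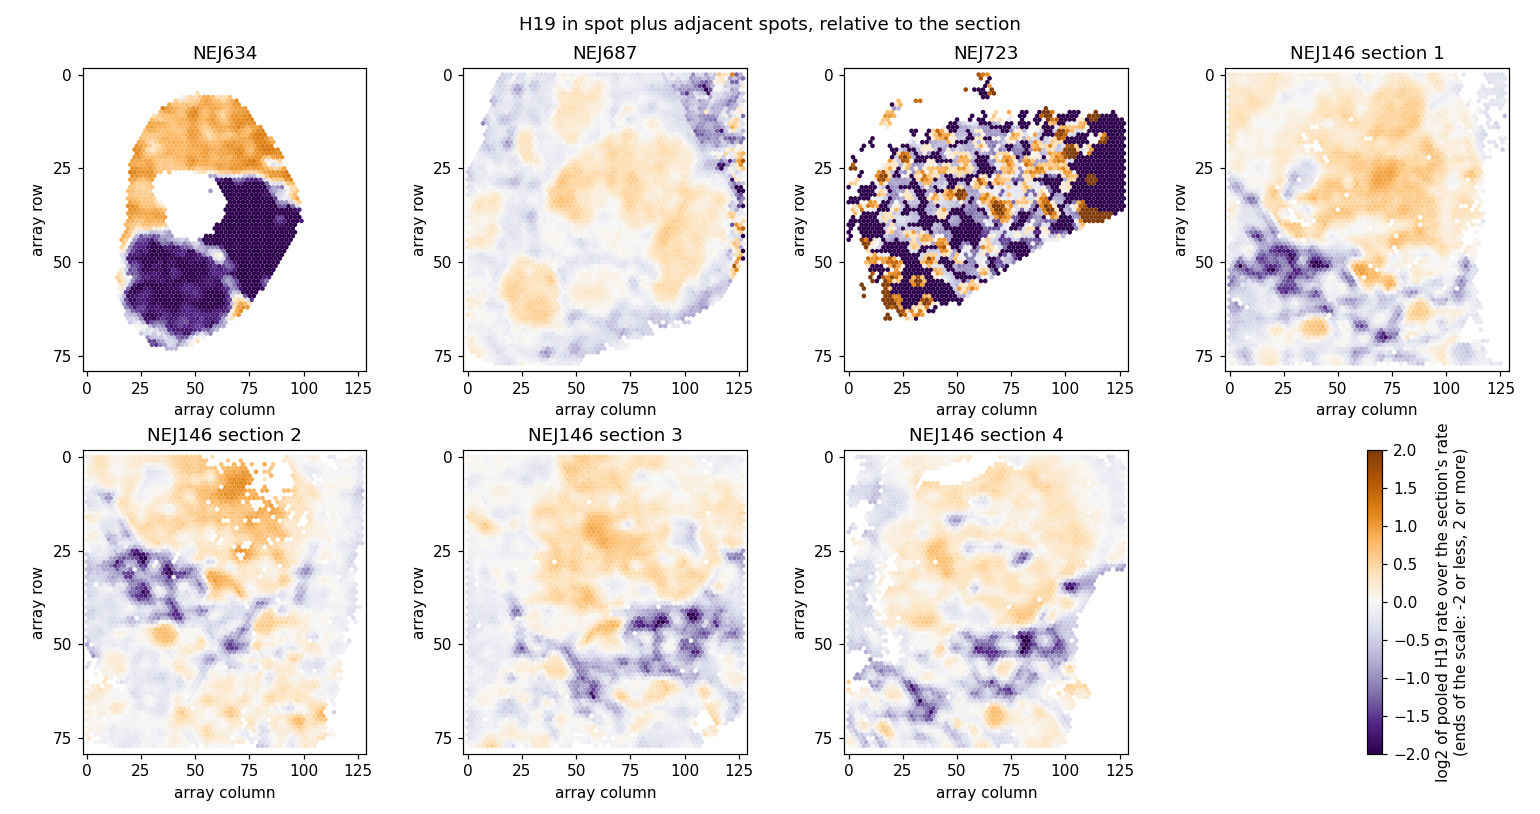
H19 pooled over each spot and its adjacent spots, as log2 of its ratio to the rate of the section, over the array rows and columns of 7 sections. NEJ634 splits into a patch of 631 high spots and a patch of 950 low spots. The NEJ146 sections hold smaller patches, of up to 264 high and up to 139 low spots, and NEJ687 is nearly even. The NEJ723 map rests on a median of 1.57 expected H19 UMIs per pool, and its H19 spread was measured at 1.45.

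H19 stood at 5444 CPM (5414 to 5474) in the high zone and 695 (685 to 705) in the low zone, which the zone limits fix. Cdkn1c, which did not enter the limits, was at 41.5 CPM (38.9 to 44.3, 941 UMIs) against 3.74 (3.04 to 4.56, 99 UMIs), 11.1-fold higher in the high zone (counting interval 9.01 to 13.8). Slc22a18 was at 25.6 against 4.803 CPM, 5.33-fold higher (4.39 to 6.51), and Phlda2 at 17.0 against 3.59 CPM, 4.73-fold higher (3.77 to 5.98). Kcnq1ot1 was the exception, with 3.31 CPM in the high zone on 75 UMIs and 7.22 in the low zone on 191 UMIs, 2.18-fold higher in the low zone (1.66 to 2.89). Igf2 was also higher there, at 332 against 202 CPM, 1.65-fold (1.59 to 1.71). The low zone had fewer UMIs per spot (median 25751 against 34235.5), and in NEJ146 Kcnq1ot1 moved with the UMIs of a spot. The part of spot depth in the Kcnq1ot1 difference was not tested. The counting intervals of both zones do not overlap for any of the 6 genes. Spots of a section are not replicates, so the folds carry no test.

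Of the 8471 genes with at least 10 CPM as the mean of both zones, 2.8% were at least 2-fold higher in the high zone and 2% in the low zone, on the log2(CPM + 1) scale that counts of 2-fold differences use throughout. H19, Cdkn1c, Slc22a18 and Phlda2 passed this filter and were among the 237 genes higher in the high zone, at ranks 14, 8, 59 and 73, while Kcnq1ot1 was below the filter. Nothing is read from this count, since the same section chose the genes.

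**Figure D3:**
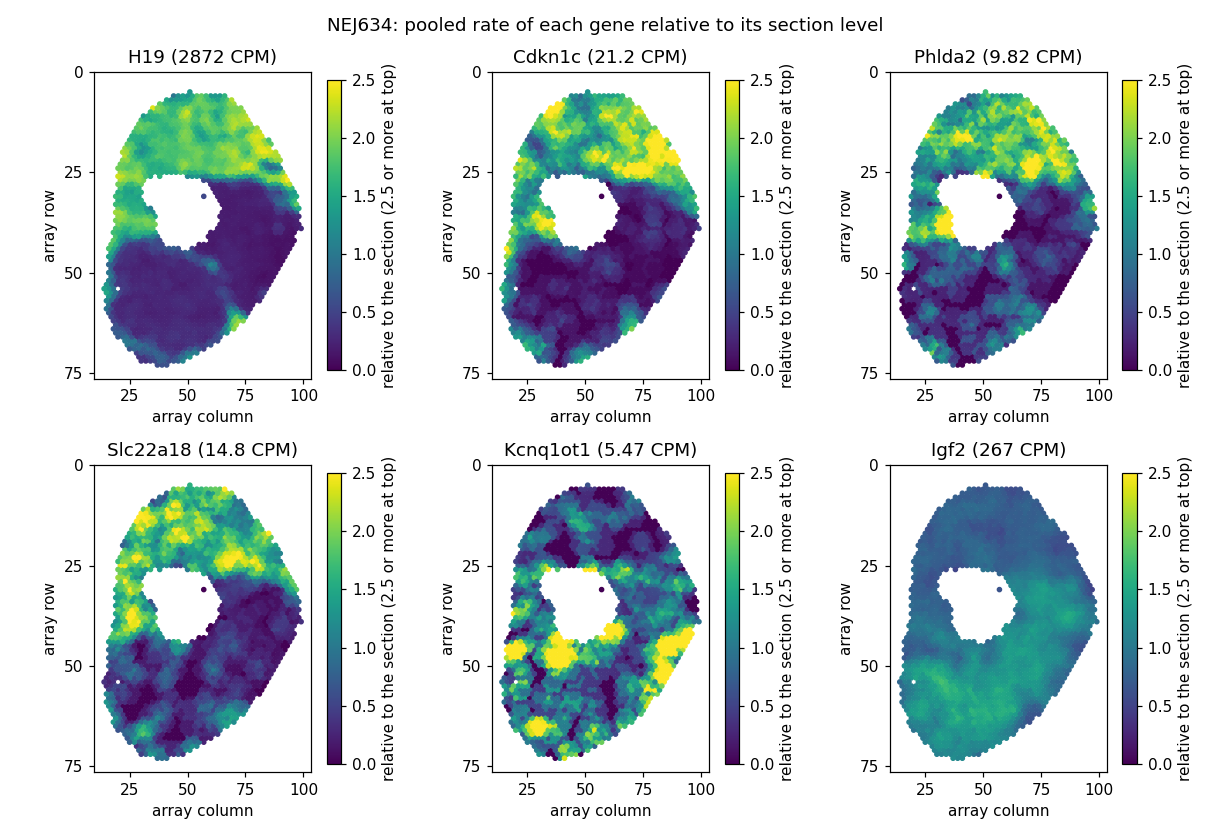
Rate of the 5 genes and Igf2 in NEJ634, pooled over each spot and its neighbours (1 step for H19, 2 steps for the others) and divided by the level of the section, which is given above each map. Cdkn1c, Phlda2 and Slc22a18 are high where H19 is high, Igf2 is higher in the H19-low zone (332 against 202 CPM), and Kcnq1ot1, with 5.47 CPM, is patchy and higher in the low zone.

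Places were then ordered by their distance from the border. H19 stood at 5387 CPM in high-zone spots 6 or more array steps from the low zone, at 5683 in high-zone spots within 5 steps, at 2773 between the zones, and at 775, 674 and 680 in low-zone spots 1 to 5, 6 to 10 and over 10 steps from the high zone. Cdkn1c followed with 39.8, 48.7, 21.5, 5.30, 3.28 and 3.50 CPM over the same places, and Slc22a18 with 24.3, 30.9, 17.6, 5.72, 5.35 and 4.06. Phlda2 took 16.5, 19.1, 10.1, 4.87, 3.93 and 2.87 CPM. Kcnq1ot1 took 3.22, 3.69, 5.78, 6.57, 7.64 and 7.17 and Igf2 200.4, 206, 235, 318, 336 and 334. For H19, Cdkn1c, Phlda2 and Slc22a18, the places nearest the border in the 2 zones differed by more than any 2 places inside 1 zone. The zone limits fix this step for H19. Cdkn1c, Phlda2 and Slc22a18 ran with H19 in this section, so the limits largely set it for them too. The spots between the zones held intermediate levels of these genes, and no step between adjacent spots was measured. The unflagged spots of this section, at 2921 CPM of H19, were as rich in H19 as the flagged ones, and the part of RNA moving between spots in the low-zone levels was not tested.

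Of the 18 neighbours listed, 8 had at least 10 CPM as the mean of both zones and 0 of them differed 2-fold in either direction, with a median of -0.14 on the log2 scale against -0.10 over all 8471 genes. Nap1l4, a histone chaperone gene next to Phlda2, was at 73.0 CPM in the high and 79.7 in the low zone, and Cd81, a tetraspanin gene between both domains, at 214 and 190. Mrpl23, a mitochondrial ribosomal protein gene beside H19, was at 151 and 147, and Ctsd, a lysosomal protease gene, at 749 and 681. Dhcr7, an enzyme of cholesterol synthesis, was at 94.9 against 150 and Lsp1, a leukocyte protein, at 10.3 against 17.7. Kcnq1, the host gene of Kcnq1ot1, was at 1.32 CPM on 30 UMIs in the high zone and 0.492 on 13 UMIs in the low zone. By chromosome, the median ratio over genes lay between -0.16 and -0.04 on the log2 scale, and that of chromosome 7 was -0.11. Outside the list, Igf2os, an antisense transcript at Igf2, was at 13.7 against 29.0 CPM and so 2-fold higher in the low zone, as Igf2 was 1.65-fold, and the counts may not tell these overlapping genes apart.

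**Figure D4:**
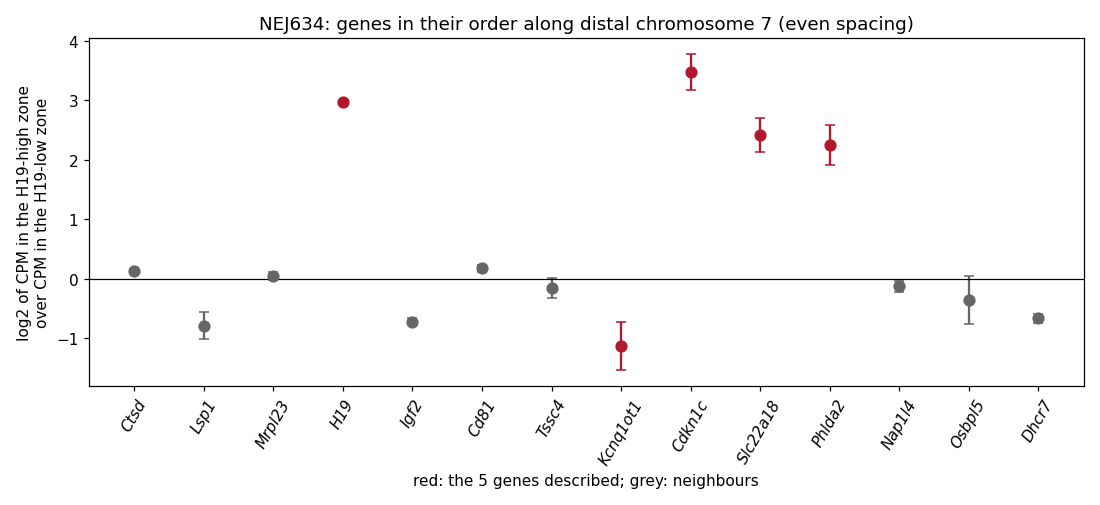
Log2 of the CPM in the H19-high zone over that in the H19-low zone of NEJ634, with counting 95% intervals, for the 5 genes and 9 neighbours in their order along chromosome 7, evenly spaced. H19 was used to set the zones; Cdkn1c, Slc22a18 and Phlda2 are 11.1-, 5.33- and 4.73-fold higher in the high zone, Kcnq1ot1 is lower there, and the 9 neighbours drawn differ by less than 2-fold (Igf2os, at 13.7 against 29.0 CPM, is not drawn).

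Among imprinted genes elsewhere, those that differed 2-fold in NEJ634 were higher in the low zone, unlike in NEJ146 (below). Of 20 listed, 18 were in the files and 14 had at least 10 CPM, of which 0 were 2-fold higher in the high zone and 5 were 2-fold higher in the low zone, with a median of -0.54. Nnat, a paternally expressed neuronal membrane gene, was at 12.9 CPM in the high and 80.6 in the low zone. Plagl1, a zinc finger regulator of imprinted genes, was at 7.77 and 28.1, Dlk1, a membrane protein of fetal tissues, at 48.0 and 143, and Mest at 27.9 and 76.1. Meg3, a maternally expressed non-coding RNA beside Dlk1, was at 26.3 and 53.1, higher in the low zone like Dlk1, its paternally expressed neighbour. Peg10, a retrotransposon-derived paternally expressed gene, ran the other way, at 30.8 and 15.3, just under 2-fold on the log2(CPM + 1) scale. None of the 13 tested genes of imprint maintenance and chromatin, among them the H19 insulator protein gene Ctcf (33.6 and 42.6 CPM) and Trim28 (170 and 223), differed 2-fold. Neither did the 7 tested genes of the list of regulators of fetal liver genes, which also holds Afp, Gpc3 and Lpl, themselves not regulators. Zhx2 and Zbtb20, known postnatal repressors of fetal liver genes, stood at 2.34 and 2.23 and at 9.67 and 8.77 CPM. Both were below 10 CPM and so not among the 7. Of the other CDK inhibitors, 4 were tested and 0 differed 2-fold, with Cdkn1a (p21) at 22.3 and 38.7 CPM. Likewise 0 of 12 tested proliferation genes differed 2-fold, with a summed level of 1017 and 1211 CPM.

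Several marker lists moved with the zones. In the macrophage list 3 of 7 tested genes were 2-fold higher in the high zone, with a summed level of 1134 against 489 CPM. Clec4f was at 184 and 21.7 CPM, Marco at 293 and 30.6, and Vsig4 at 96.3 and 9.76. All 4 tested erythroid genes were higher there, with a summed level of 1499 against 300.2 CPM, as were 6 of 7 tested neutrophil genes (1032 against 319) and 3 of 6 endothelial genes (158 against 78.3), among them the sinusoidal genes Clec4g (33.2 and 4.50) and Lyve1 (19.6 and 3.90). In the hepatocyte list 2 of 8 were higher in the high zone, Cyp2e1 (130 and 15.9) and Cps1 (2394 and 943), although the summed level, to which Alb adds 10760 and 15699, was 37890.5 against 42597 CPM. The low zone was 2-fold higher in 3 of 4 tested bile duct genes, with Krt19 at 14.6 and 60.3, Krt7 at 11.6 and 58.3 and Epcam at 15.6 and 76.6 CPM, and in 4 of 6 stromal genes, with Thy1 at 12.3 and 69.9 and Col1a1 at 164 and 395, while the stromal gene Dcn was 2-fold higher in the high zone, at 231 and 106. No hypoxia gene of 6 tested differed 2-fold. No defining marker of these lists was at 0 in either zone, and the part of cell composition in the levels of the 5 genes was not tested.

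The genes that separated the zones also separated other tissues, which share no section with NEJ634. Of the 8471 genes, 4.13% were at least 2-fold higher in NEJ687 than in NEJ723 and 3.49% were 2-fold lower. Of the 237 genes of the high zone, 176 (74.3%) were higher in NEJ687 than in NEJ723 and 1 was lower, and of the 169 genes of the low zone, 110 (65.1%) were lower and 2 were higher. In NEJ146 against NEJ723, where 4.31% of all genes were 2-fold higher and 10.1% were lower, the shares were 74.7% and 59.8%. Both comparisons use the NEJ723 section, so they are not independent of each other. The log2 ratio between the zones and that between the tissues had a Pearson r of 0.70 over 8471 genes for NEJ687 and 0.70 for NEJ146, across genes, which are not replicates.

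Zones like these were looked for in the other sections. They were called where each zone held at least 5% of the tissue spots with a connected patch of at least 50 spots, and where the pool of a spot held at least 20 expected H19 UMIs in the median. Of the 10 sections, 1 had such zones, NEJ634. In NEJ146 the high zone held 7.32%, 7.80%, 2.79% and 1.39% of the spots of sections 1 to 4 and the low zone 4.29%, 2.79%, 3.16% and 3.64%. The largest high patch had 143, 264, 86 and 30 spots and the largest low patch 139, 31, 49 and 53. With 12000 in place of 8000 UMIs as the limit for an NEJ146 tissue spot, section 1 passed as well, and 2 sections then had zones. With weaker limits on the H19 ratio, 6 sections passed: NEJ634, NEJ687 and all 4 of NEJ146. The absence of zones in NEJ687 and NEJ146 thus holds for the limits used and not for weaker ones. The range of the pooled H19 ratio, from the 5th to the 95th percentile of spots, was 0.167 to 2.08 in NEJ634, 0.624 to 1.39 in NEJ687 and 0.527 to 1.54, 0.580 to 1.61, 0.563 to 1.44 and 0.542 to 1.36 in NEJ146.

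In NEJ687 the high and low spots, 1.21% and 1.62% of the tissue, formed patches of up to 12 and 13 spots, and the low spots had a median of 182.5 UMIs, so they were almost empty. In section 2 of NEJ146 the high spots had a median of 10747 UMIs against 36151 in the low spots, and 41.4% of them lay at the margin of the tissue, against 8% of the low spots. For NEJ723 the median expected H19 UMIs per pool were 1.57, for NEJ638 6.75, for NEJ654 0.712 and for NEJ677 0.474. Zones could not be set on so few H19 UMIs and would not have been detectable. The H19 level of NEJ723 as a whole, 11.96 CPM, was also far below that of the H19-low zone of NEJ634, 695 CPM. The other members were too sparse to set zones of their own, with 4.29 to 6.92 expected Cdkn1c UMIs per pool in NEJ634 and NEJ146.

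Inside the small zones of NEJ146, the members did not move together as they did in NEJ634. H19 was 4.68-, 4.66-, 4.32- and 4.52-fold higher in the high spots of sections 1 to 4, which the limits fix. Cdkn1c was 2.05-fold higher there in section 1 (1.53 to 2.75), 2.87-fold in section 2 (2.01 to 4.18) and 2.35-fold in section 3 (1.67 to 3.34), and in section 4 the interval of 1.43 spanned 1 (0.851 to 2.33). Phlda2 was 1.52-fold (1.02 to 2.27), 2.06-fold (1.28 to 3.37), 1.44-fold (0.844 to 2.44) and 0.865-fold (0.342 to 1.94). Slc22a18 was higher in the low spots of every section, 1.69-fold (1.38 to 2.07), 1.54-fold (1.23 to 1.93), 2.34-fold (1.80 to 3.09) and 3.37-fold (1.95 to 6.32). Igf2 was higher in the high spots in sections 1 to 3, 2.61-fold, 2.79-fold and 1.68-fold, opposite to NEJ634, and 1.17-fold in section 4, where the interval of 0.837 to 1.62 spans 1. Kcnq1ot1 rested on 1 to 17 UMIs in these zones and all 4 intervals spanned 1. Of 7, 7, 6 and 6 tested imprinted genes elsewhere, 3, 4, 3 and 3 were 2-fold higher in the high spots, opposite to NEJ634. In the low spots 0 were, and the medians were 0.45, 1.14, 0.60 and 0.48 on the log2 scale. The share over all genes was not counted for these zones, so nothing particular to imprinted genes is read from this. Other lists had positive medians as well, with 0.51, 0.78, 0.69 and 0.39 for imprint maintenance and chromatin. The proliferation list had 1.10, 1.38, 1.09 and 1.06, while the hepatocyte list had -0.85, -0.89, -1.26 and -1.05. Marker lists moved with these zones as well. In the high and low spots, the bile duct list summed to 17.3 and 449 CPM in section 1, 26.3 and 429 in section 2, 16.1 and 523 in section 3 and 10.2 and 434 in section 4. The stromal list ran from 191 to 275 CPM in the high and from 953 to 1106 in the low spots, the hepatocyte list from 20335 to 31255 and from 49328 to 60569.6, and the proliferation list from 630 to 770 and from 307 to 351. The endothelial list was lower in the high spots of all 4 sections, opposite to NEJ634, with 110 and 195 CPM, 113 and 189.7, 97.6 and 194, and 69.4 and 163 in the high and low spots of sections 1 to 4. The erythroid list had no steady direction, with 4271 and 4054, 5639 and 2318, 3747 and 2093, and 2297 and 17736 CPM in the high and low spots of sections 1 to 4, nor had the neutrophil list, with 97.0 and 229.5, 218 and 145, 80.2 and 103, and 69.4 and 623. The macrophage list, higher in the high zone of NEJ634, had none either, with 704 and 702, 662 and 595, 474 and 708, and 347 and 555. The hypoxia list was higher in the high spots of all 4 sections, with 559 and 347, 623 and 339, 516 and 312, and 584 and 351. The part of these lists in the levels of the 5 genes was not tested.

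By spread, H19, Cdkn1c and Slc22a18 were more divided in NEJ634 than in any section of NEJ146, Kcnq1ot1 was less divided, and Phlda2, at 0.613, lay between the NEJ146 sections. Beside 0.815 in NEJ634, H19 had a spread of 0.314, 0.285, 0.271 and 0.264 in NEJ146 and 0.192 in NEJ687. Cdkn1c kept a high spread in NEJ146, with 0.738, 0.765, 0.713 and 0.687, and had 0.396 in NEJ687. Phlda2 stood at 0.495, 0.849, 0.788 and 0.582 in NEJ146, Slc22a18 at 0.329, 0.257, 0.346 and 0.412, and Kcnq1ot1 at 1.12, 1.10, 1.12 and 1.07, while all 3 were not measurable in NEJ687. Of genes with 1000 or more UMIs, 7.02%, 7.13%, 7.83% and 6.67% had a spread of 0.5 or more in NEJ146 sections 1 to 4 and 2.13% in NEJ687. The members above that limit, among those with enough UMIs, were Cdkn1c in all 4 NEJ146 sections and Phlda2 in sections 2 to 4, and 0 of 4 in NEJ687. In NEJ723 H19 had a measured spread of 1.45 on 522 UMIs, and its shared deviation fell below 0.5 of the adjacent value at step 2. Of the genes with 1000 or more UMIs there, a set that leaves H19 out, 0.379% passed 0.5. The other 4 were not measured in NEJ723. Of the 3 remaining tissues, H19 was measured in NEJ638 at 0.551 and Slc22a18 in NEJ677 at 0.188.

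Coupling, the shared deviation of 2 genes in adjacent spots over the product of their spreads, is 1 for the same pattern and -1 for opposite ones, and can pass these limits through counting error. In NEJ634 H19 was coupled to Cdkn1c at 0.98, to Phlda2 at 1.09 and to Slc22a18 at 0.98, and these 3 among each other at 0.95 to 1.15. Kcnq1ot1 was coupled to the 4 at -0.59 to -0.42 and to Igf2 at 0.12, and the part of spot depth in these values was not tested. Igf2 was coupled to H19 at -0.86, to Cdkn1c at -0.83 and to Phlda2 at -0.93. Of the 1787 genes with a clear spread, 6.04% were coupled to H19 at 0.9 or more. Cdkn1c, the only other member with the 1000 UMIs this needs, was among them at rank 13.

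In NEJ146 the genes did not form a single set. Cdkn1c and Phlda2 stayed coupled, at 0.90, 0.84, 0.90 and 0.78 in sections 1 to 4, while H19 was coupled to Cdkn1c at 0.20, 0.19, 0.14 and 0.19 and to Phlda2 at 0.27, 0.14, 0.07 and 0.13. Slc22a18 ran against H19 at -0.58, -0.49, -0.76 and -0.74 and weakly against Cdkn1c at -0.39, -0.13, -0.11 and -0.10. Igf2 ran with H19 at 0.48, 0.52, 0.19 and 0.12 and with Cdkn1c at 0.34, 0.41, 0.41 and 0.47. Kcnq1ot1 had no steady sign with H19 (0.02, 0.07, -0.10 and -0.08) and a positive one with Cdkn1c (0.29, 0.28, 0.35 and 0.07). In NEJ687 H19 was coupled to Cdkn1c at 0.24 and to Igf2 at -0.07, and in NEJ723 to Igf2 at -0.31. The size depended on the measure: a partial Spearman correlation over single spots gave 0.50 for H19 and Cdkn1c in NEJ634 and 0.15 for Cdkn1c and Phlda2 in NEJ146, with the same signs.

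**Figure D5:**
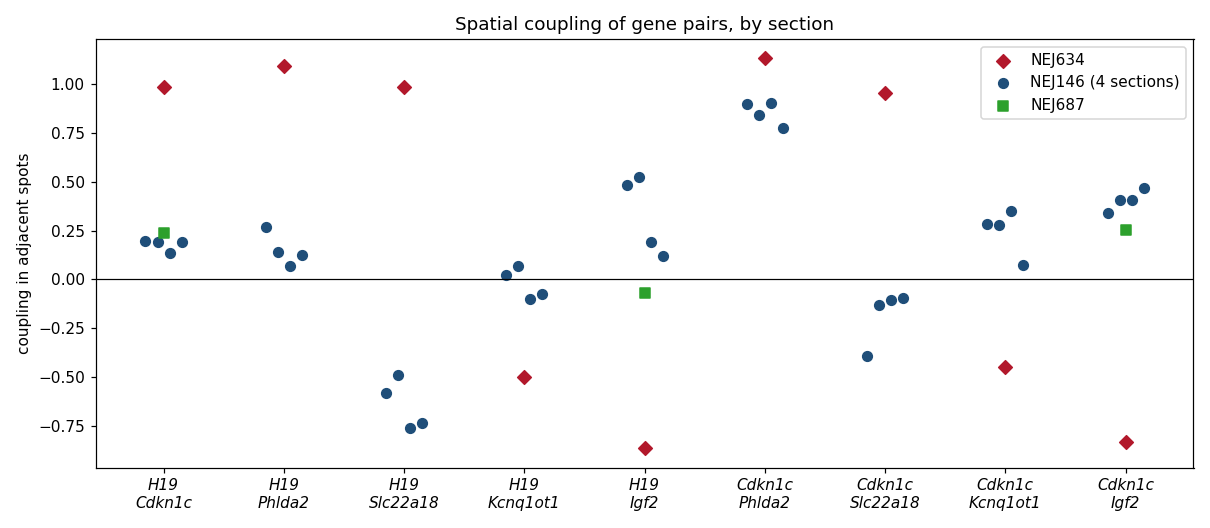
Coupling of 9 gene pairs in adjacent spots of NEJ634, of the 4 NEJ146 sections and, where both spreads were measured, of NEJ687. H19 is coupled to Slc22a18 at 0.98 in NEJ634 and at -0.76 to -0.49 in NEJ146, and to Igf2 at -0.86 and at 0.12 to 0.52, while Cdkn1c and Phlda2 are coupled in both tissues.

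In NEJ146, Slc22a18 and the pair of Cdkn1c and Phlda2 were coupled to different gene lists. Slc22a18 was coupled to the summed hepatocyte list at 0.87, 0.77, 0.92 and 0.91 and to the endothelial list at 0.73, 0.65, 0.74 and 0.66, and to the proliferation list at -0.77, -0.43, -0.55 and -0.60. Cdkn1c was coupled to the list called regulators of fetal liver genes at 0.80, 0.92, 0.88 and 0.76. It was coupled to the proliferation list at 0.65, 0.76, 0.76 and 0.71 and to the imprinted genes elsewhere at 0.55, 0.71, 0.73 and 0.62. Phlda2 was coupled to the same 3 lists at 0.88 to 0.95, 0.55 to 0.76 and 0.79 to 0.94. Afp, itself not a regulator, dominates the first of these sums, at 2023 CPM in NEJ146. Lpl stood there at 238 CPM, Zhx2 at 1.79 and Zbtb20 at 8.48. Couplings to this list therefore describe Afp more than the regulators. In NEJ634, Slc22a18 kept its sign with the endothelial list (0.94) and the proliferation list (-0.61) and had the opposite sign with the hepatocyte list (-0.35). That sum weights abundant genes most: it was 37890.5 CPM in the high and 42597 in the low zone of H19, and Alb alone 10760 and 15699, while the 8 members of the list had a median of 0.51 on the log2 scale between these zones, with 2 members 2-fold higher and 0 lower in the high zone. Cdkn1c and Phlda2 had the opposite signs there, with Cdkn1c coupled to the 3 lists at -0.72, -0.52 and -0.60 and Phlda2 at -0.85, -0.55 and -0.75. There, H19 was coupled to the endothelial list at 0.85 and to the macrophage list at 0.84.

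The genes most like H19 in pattern were ranked within each section. In NEJ634 the 5 highest couplings, over the 1787 genes, were those of Rcl1 (1.05), Gm11789 (1.03), Tspan12 (1.01), Mcrip2 (0.999) and Optn (0.996), and the 5 lowest those of Erp44 (-1.13), Spcs2 (-1.08), Nras (-1.04), Arf1 (-1.02) and Lpcat3 (-1.01). With a Pearson correlation of pooled log2(CPM + 10) as the measure, 0 of these 5 and 0 of those 5 remained, and the highest were Apoa5, Clec4f, Gpx1, Marco and Vsig4. In NEJ146 the highest were Letmd1 in section 1 (1.04), Comtd1 in section 2 (0.89), Mrps25 in section 3 (0.88) and Mrps14 in section 4 (0.94), the latter 2 coding for mitochondrial ribosomal proteins. The gene at the top differed between these sections, while Comtd1 was among the 5 highest in sections 1 and 2 and Phb2 in sections 2 and 4. In NEJ687 the highest was Endog (0.92), a mitochondrial nuclease gene. H19 was coupled to the hypoxia list at 0.72 in NEJ687, at 0.61, 0.50, 0.59 and 0.67 in NEJ146 and at -0.17 in NEJ634. With the stromal list its coupling was -0.50 in NEJ687, -0.56, -0.44, -0.52 and -0.58 in NEJ146 and -0.40 in NEJ634. With the hepatocyte list it was -0.44 in NEJ687, -0.70, -0.71, -0.76 and -0.74 in NEJ146 and -0.39 in NEJ634. With the proliferation list it was -0.27 in NEJ687, 0.61, 0.62, 0.52 and 0.68 in NEJ146 and -0.60 in NEJ634. Cdkn1c ranked 1082 to 1454 of 2415 to 3286 genes by coupling to H19 in the NEJ146 sections.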

How the data were processed

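The deposited matrices hold UMI counts for each gene in every Visium spot, not normalized by the authors, and 6 tissues have position files. The study's processing notes name Cell Ranger 6.0, Space Ranger 1.3 and the build mm10, and the matrix headers name Cell Ranger 4. Of 31053 gene identifiers, 31011 were found in GENCODE M21.

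The 5 genes and all gene lists were chosen with earlier results of these data known. Counts were summed over tissue spots as CPM, with exact Poisson 95% intervals, which cover counting error only. Folds between zones carry exact binomial counting intervals. NEJ146 spots took the array positions that other slides give to their barcodes. No test was run, since no tissue has replicate animals. No doublet caller was run on spots. Named genes were the 5 genes, their chromosome 7 and imprinted lists, up to 4 genes of each other list, the 5 highest and lowest by coupling to H19 and the 5 with the highest spread, and the genes beside the 5 in the NEJ723 comparison and Igf2os were named after their values were seen. Couplings and folds were tested on simulated data. Alternatives changed spots, limits, denominators and measures. Python 3.11.15 with numpy 2.4.6, scipy 1.17.1, pandas 2.3.3 and matplotlib 3.10.9 was used.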

Additional observations from a re-analysis of the deposited data

Results flagged for a closer look

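The coupling of 8 gene pairs had a sign in NEJ634 that all 4 NEJ146 sections opposed, and the difference was not tested. In NEJ634 the values were 0.98 for H19 with Slc22a18, 0.95 for Cdkn1c with Slc22a18 and 1.15 for Phlda2 with Slc22a18, all negative in NEJ146. They were -0.86, -0.83 and -0.93 for Igf2 with H19, Cdkn1c and Phlda2, and -0.45 and -0.59 for Kcnq1ot1 with Cdkn1c and Phlda2, all positive in NEJ146.

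Among the 4 NEJ146 sections, section 3 stood apart in the coupling of H19 with Cdkn1c (0.14) and section 1 in that of Cdkn1c with Slc22a18 (-0.39). Chance flags about 1 in 20 groups.

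Outside NEJ146, H19 and Kcnq1ot1 were over 2-fold higher in unflagged than in flagged spots of the tissues that follow, counting the 5 genes with 20 or more UMIs in unflagged spots. H19 was at 35.4 CPM in NEJ723 and 71.0 in NEJ677. For Kcnq1ot1 the unflagged spots gave 28.1 CPM in NEJ723, 20.2 in NEJ687, 11.1 in NEJ634, 2.96 in NEJ677 and 1.74 in NEJ654. Unflagged spots may hold tissue. Smaller excesses in them were common, such as Slc22a18 in NEJ634 at 27.7 against 14.8 CPM, Phlda2 there at 14.5 against 9.82 and H19 in NEJ654 at 11.4 against 6.31.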

How the results depend on the processing

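The weak couplings, and none of the others run, changed sign: in NEJ146 the mean for Phlda2 with Slc22a18 went from -0.17 to 0.0060 and in NEJ634 Kcnq1ot1 with Igf2 from 0.12 to -0.03 by partial Spearman correlation, the mean for Slc22a18 with Igf2 in NEJ146 from -0.16 to 0.12 over tiles, and that for H19 with Kcnq1ot1 from -0.02 to 0.0040 without section 3. No paired analysis was possible because 6 of the 7 tissues have 1 section each, so that tissues share at most 1 replicate number, and no test was run. The number of sections with H19 zones went from 1 to 2 with NEJ146 spots of 12000 or more UMIs and to 6 with weaker zone limits, and stayed at 1 in the other settings run. The high zone of NEJ634 held 37.3% of spots with weaker limits, 7.72% with stricter ones and 17.9% over every spot with 500 or more UMIs, an alternative chosen after seeing the data. The low zone held 54.6%, 42.1% and 40.9% in the same settings and 48.3% with pools of 2 steps. With stricter limits Cdkn1c was 14.9-fold higher in the high zone and the Kcnq1ot1 ratio was 0.340. Couplings in NEJ634 by partial Spearman correlation over spots were 0.50 for H19 with Cdkn1c, 0.32 with Phlda2, 0.39 with Slc22a18, -0.11 with Kcnq1ot1 and -0.36 with Igf2, and in NEJ146 -0.14 for H19 with Slc22a18 (mean -0.64) and 0.15 for Cdkn1c with Phlda2 (mean 0.86). Over tiles they were 0.91 for H19 with Phlda2, -0.40 for H19 with Kcnq1ot1 and 0.78 for Cdkn1c with Phlda2 in NEJ146, and at 2 array steps 0.98 for H19 with Phlda2 and -0.59 with Kcnq1ot1 in NEJ634. Leaving out 1 NEJ146 section at a time gave -0.69 to -0.60 for H19 with Slc22a18, 0.84 to 0.88 for Cdkn1c with Phlda2, and 1822 to 1830 genes with a 4-fold range over tissues. That last count was 3039 with a mean of 1 CPM or more and 3071 with no filter. Genes higher in the high zone numbered 416 and 423 with these filters and 508 at 1.5-fold, and those higher in the low zone 407, 416 and 572. Of the 5 genes most like H19 in NEJ634, 3 remained with a minimum of 300 UMIs and 0 by Pearson correlation, by which 0 of the 5 most opposite remained. The cause of these shifts was not tested. Of the main results and settings, 138 kept their value within the limit and 34 moved. Depth limits Phlda2, Slc22a18 and Cdkn1c in NEJ723, with 3, 17 and 23 UMIs.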
